A study of Mus musculus with 12 samples.

Results

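The expression of 9 genes of blood coagulation and plasminogen activation was followed in mouse bone marrow–derived macrophages (BMDMs): F3, F10, F13a1, Thbs1, Thbd, Procr, Serpinb2, Plau and Plaur. They were picked by name, with earlier results of these data known. All 9 were found among the 43626 gene identifiers of the count tables. All 9 also passed the filter on low counts, which left 14308 genes. Quiescent BMDMs given PBS were compared with BMDMs given 3′-sialyllactose (3′SL, a sialylated human milk oligosaccharide that the labels call HMO), lipopolysaccharide (LPS, a bacterial activator of the receptor TLR4), or LPS and 3′SL together (LPS+HMO in the labels), with 3 libraries in each of the 4 groups. Per the study, exposure lasted 6 hours, at 100 μg/mL for 3′SL and at 10 ng/mL for LPS. The treatment field of the labels describes injections of mice instead, while the extraction field describes the BMDM comparison. Strain, sex and age of the bone marrow donors were not given in the labels, nor was whether the 3 libraries of a group came from separate mice or cultures, so p-values measure the spread between libraries, which may be technical.

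The coagulation cascade is started by tissue factor (F3), a membrane receptor for factor VII, and the complex activates factor X (F10), whose active form makes thrombin. Thrombomodulin (Thbd) and the endothelial protein C receptor (Procr) belong to the protein C pathway that restrains the cascade. Factor XIII A (F13a1) crosslinks fibrin, and plasminogen activation dissolves it: urokinase (Plau) cleaves plasminogen, its receptor (Plaur) holds urokinase at the cell surface, and plasminogen activator inhibitor 2 (Serpinb2) inhibits urokinase. Thrombospondin 1 (Thbs1) is a secreted matrix protein of platelets and activated cells. Macrophages and monocytes are a known source of several of these proteins in inflamed tissue.

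In GENCODE M21 (GRCm38) all 9 are protein-coding. The cascade genes are F3 (ENSMUSG00000028128.9) at chr3:121723537-121735048 (+), F10 (ENSMUSG00000031444.12) at chr8:13037308-13056676 (+) and F13a1 (ENSMUSG00000039109.11) at chr13:36867178-37050244 (−). The protein C pathway genes are Thbd (ENSMUSG00000074743.4) at chr2:148404466-148408188 (−), which has a single exon, and Procr (ENSMUSG00000027611.8) at chr2:155751117-155755471 (+). The plasminogen system genes are Plau (ENSMUSG00000021822.2) at chr14:20836660-20843385 (+), Plaur (ENSMUSG00000046223.9) at chr7:24462484-24475968 (+) and Serpinb2 (ENSMUSG00000062345.6) at chr1:107511423-107535478 (+), and the matrix protein gene is Thbs1 (ENSMUSG00000040152.8) at chr2:118111876-118127133 (+).

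The 12 libraries held between 20411741 and 26851890 reads on genes, with a median of 23375851. Libraries with consecutive numbers in their titles formed 3 sets of 4, which hold all 4 conditions once. The deviations from the group means correlated at 0.596 on average within sets and −0.346 between sets. Deviations from a mean of 3 libraries cancel within a group, so a negative value between sets is partly built in. The labels do not say what a set is, and replicate 1, 2 and 3 below are the libraries of sets 1, 2 and 3. Summed stromal markers (8 genes) were highest in set 1, at 529 to 616 CPM (counts scaled to a common library size), against 22.6 to 42.0 CPM for set 2 and 54.0 to 96.6 CPM for set 3. Summed neutrophil markers (8 genes) ranged from 139 to 221 CPM (set 1), from 264 to 447 CPM (set 2) and from 301 to 1015 CPM (set 3). All 7 macrophage markers were detected, with sums of 17417 to 27615 CPM. Of 6 endothelial markers, Tek, Emcn and Tie1 stayed under 1 CPM in every library and Pecam1, Cdh5 and Kdr were detected. The 6 summed to 7.52 to 13.7 CPM with PBS, 7.43 to 14.6 CPM with 3′SL, and in the LPS and LPS+3′SL libraries to 18.6 to 28.7 and 17.9 to 29.5 CPM. The LPS response genes Tnf, Il6, Il1b, Nos2 and Cxcl10 were all higher with LPS than without it, in each of the 2 comparisons. In bulk RNA, fewer cells of a type and less RNA per cell cannot be told apart.

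Promoters are shown for the 4 genes that passed the test for a rise in LPS against PBS (below), so the choice rests on these data. The sequences are from RefSeq (GRCm38.p6), on the coding strand, from 250 bases upstream of the RefSeq start site up to the first annotated transcript start. Of the 9 genes, 6 matched an entry: F3, F10, F13a1, Procr, Serpinb2 and Plaur. Thbs1, Thbd and Plau had none. The window is chr3:121723287-121723536 (+) for F3, chr8:13037058-13037307 (+) for F10, chr2:155750967-155751116 (+) for Procr, where 150 bases are shown of the 250 searched for motifs, and chr7:24462233-24462482 (+) for Plaur. Capitals mark matches to TGANTCA, the letters of the AP-1 site, on either strand.
F3: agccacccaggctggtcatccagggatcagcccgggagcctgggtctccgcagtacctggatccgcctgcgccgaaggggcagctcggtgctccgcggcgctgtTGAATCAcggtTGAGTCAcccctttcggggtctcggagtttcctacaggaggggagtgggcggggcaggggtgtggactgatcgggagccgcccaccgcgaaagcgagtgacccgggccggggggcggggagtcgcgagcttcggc
F10: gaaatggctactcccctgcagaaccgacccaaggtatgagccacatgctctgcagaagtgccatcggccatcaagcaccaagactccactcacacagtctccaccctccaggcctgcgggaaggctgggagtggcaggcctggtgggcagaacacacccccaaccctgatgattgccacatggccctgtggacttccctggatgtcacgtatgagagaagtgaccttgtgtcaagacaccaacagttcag
Procr: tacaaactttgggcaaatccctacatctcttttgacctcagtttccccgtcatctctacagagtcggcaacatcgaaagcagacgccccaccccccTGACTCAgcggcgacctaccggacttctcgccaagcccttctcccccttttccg
Plaur: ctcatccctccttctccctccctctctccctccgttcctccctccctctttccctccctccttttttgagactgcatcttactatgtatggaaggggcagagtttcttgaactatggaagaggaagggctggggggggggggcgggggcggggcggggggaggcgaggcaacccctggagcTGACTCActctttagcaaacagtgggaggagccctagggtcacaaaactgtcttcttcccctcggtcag
TGANTCA stood in the F3 window at 146 and 135 bases before the RefSeq start site, in the Procr window at 154 and in the Plaur window at 69, counting to the first base of the match. For Procr the RefSeq start site (chr2:155751217) lies inside the annotated gene, so the 150 bases shown end before reaching it. The Serpinb2 window also held a match, at 94. The letters were not found in the F10 or F13a1 window. Of 32851 RefSeq promoter windows of 250 bases, 6.75% held TGANTCA. The κB letters searched for must begin with GGG, and exact matches to them were in none of the 6 windows and in 3.9% of all windows. The F3 window holds CGGAGTTTCC, which departs from these letters only in its first base and so was not counted. The search therefore does not show that the F3 window lacks a κB site, and whether CGGAGTTTCC acts as one was not tested. GGGCGG, the SP1 letters, was matched in the F3 and Plaur windows and in 32.7% of all windows, and in Plaur it overlapped the EGR1 match GCGGGGGCG. The EGR1 letters GCGNGGGCG were in 4.7% of all windows. TTGCNNAA, the C/EBP letters, were in the Procr, Serpinb2 and Plaur windows and in 9.56% of all, GAGGAA, the PU.1 letters, in the F13a1 and Plaur windows and in 23.3% of all, and TGACGTCA, the CRE letters, in none of the 6 and in 1.55% of all. A match of letters is a description and not evidence of binding.

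The first question was how LPS changed these genes. With LPS, tissue factor, factor X, the protein C receptor and the urokinase receptor were higher, and thrombomodulin and urokinase were lower. A gene was called changed when edgeR's quasi-likelihood test gave a Benjamini-Hochberg adjusted p under 0.05 over the 14308 genes and a change of at least 1.5-fold. Of the 9 genes, 6 were called in LPS against PBS, beside 38.5% of all genes. F3, F10, Procr and Plaur were higher (4 of 9, beside 18.3% of all genes) and Thbd and Plau lower (2 of 9, beside 20.2%). In LPS+3′SL against 3′SL, 4 of 9 were called, beside 29.2% of all genes: F3 and F10 were higher (14.3% of all genes) and Thbd and Plau lower (14.8%). The median log2 fold change of the 9 genes was 2.20 in the first comparison and 1.29 in the second, against −0.06 and −0.07 over all genes. These medians are the values of Serpinb2 and Procr, neither of which was called there. Because the 9 genes were chosen with earlier results of these data known, this contrast is a description and not a test. DESeq2 called 7 of 9 (39.6% of all genes) and 5 of 9 (30.9%). With the library set as a block in edgeR, 8 of 9 were called in each comparison, where all genes gave 44.6% and 35.8%. The 2 comparisons share no library.

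**Figure D1:**
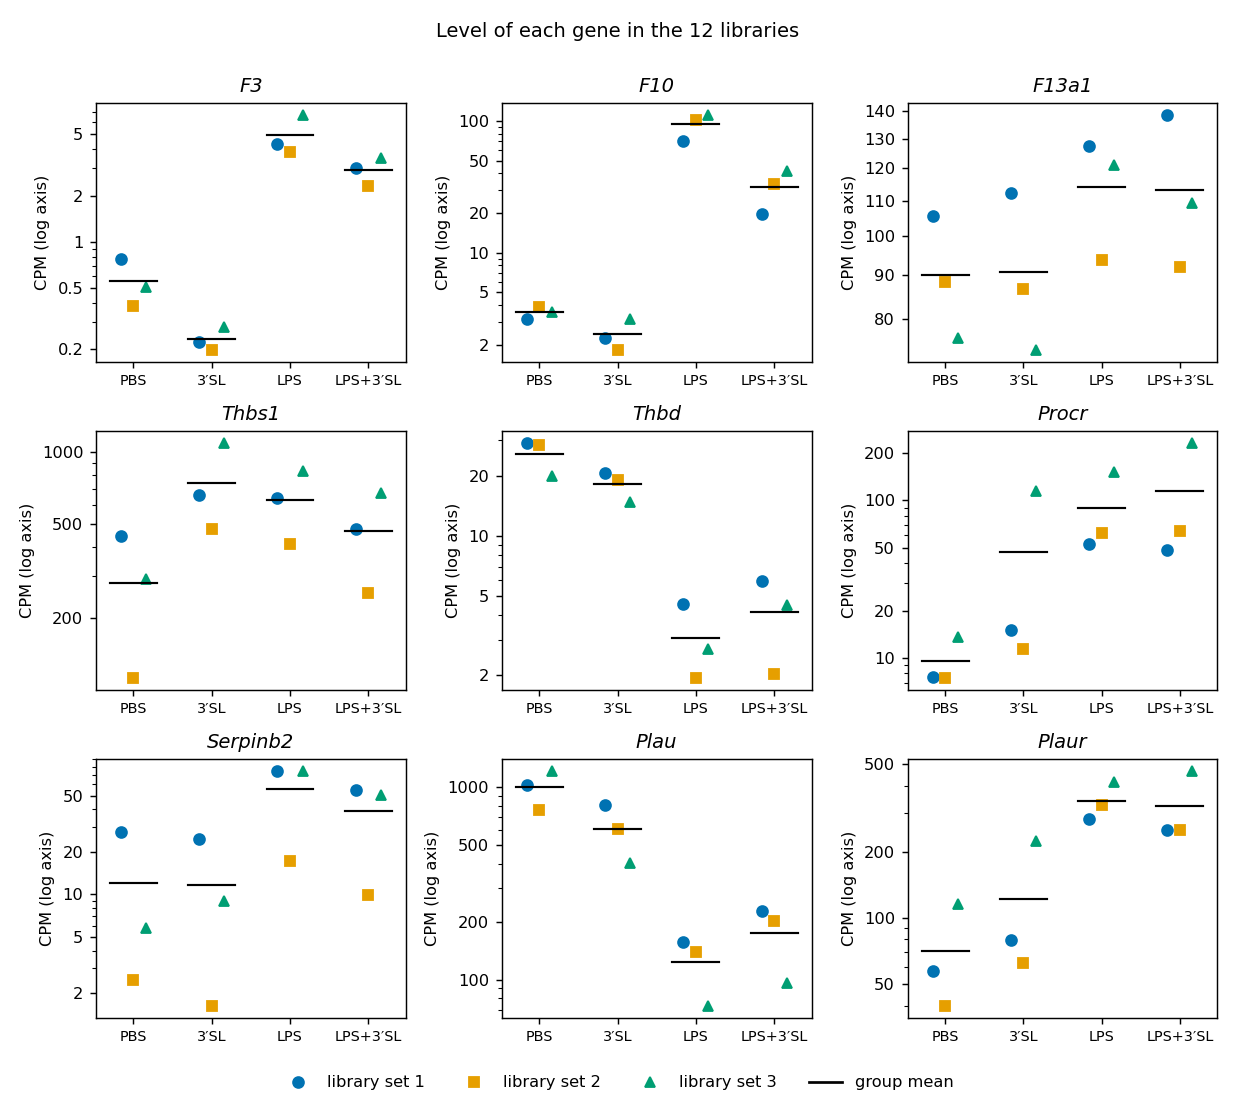
Level of the 9 genes in each of the 12 libraries, in CPM on a log axis, by condition. Points are libraries, shaped and coloured by library set, and the horizontal line is the group mean. F3 and F10 are higher and Thbd and Plau lower in every library with LPS than in any without it, and Serpinb2 is lowest in set 2 in every condition.

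F10 had the steepest response of the 9. Its level was 3.16, 3.89 and 3.57 CPM with PBS and 70.2, 102 and 111 CPM with LPS (replicates 1, 2 and 3). It was 2.23, 1.83 and 3.14 CPM with 3′SL alone and 19.6, 33.2 and 41.5 CPM with LPS+3′SL. The 4 conditions stood apart, in the order 3′SL, PBS, LPS+3′SL, LPS, with the closest libraries of 3′SL and PBS almost touching. LPS raised F10 26.7-fold (log2 fold change 4.74, SE 0.32, edgeR adjusted p = 1.61e-06), and with 3′SL present 13.1-fold (3.71, SE 0.31, adjusted p = 1.01e-05). Within library sets the LPS change was 4.47, 4.71 and 4.96 on the log2 scale.

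F3 was low in unstimulated cells, at 0.77, 0.39 and 0.51 CPM with PBS, or 27, 11 and 15 reads. It was 4.29, 3.82 and 6.69 CPM with LPS. The levels were 0.22, 0.20 and 0.28 CPM with 3′SL and 3.01, 2.30 and 3.48 CPM with LPS+3′SL. Here too no libraries of neighbouring conditions overlapped, in the same order as for F10. F3 rose 8.76-fold with LPS (log2 3.13, SE 0.35, edgeR adjusted p = 3.94e-05) and 12.3-fold with LPS in the presence of 3′SL (log2 3.62, SE 0.38, adjusted p = 3.96e-05). Within sets the LPS change of F3 was 2.47, 3.31 and 3.73 on the log2 scale.

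F13a1 moved little. It lay at 106, 88.3 and 76.0 CPM with PBS, 112, 86.7 and 73.6 with 3′SL, 127, 93.9 and 121 with LPS and 139, 91.9 and 109 with LPS+3′SL. All neighbouring conditions overlapped. The log2 fold change with LPS was 0.34 (SE 0.20, edgeR adjusted p = 0.192), with a 95% confidence interval from −0.12 to 0.81, and its sign turned with scaling to total counts (−0.31). F13a1 lies on the minus strand of chromosome 13, and a gene of the opposite strand, Gm30489, overlaps 74 of its 6739 exon bases. Gm30489 was not among the counted identifiers. Thbs1 also has an opposite-strand overlap, 208 bases with Gm29233, which held 8 reads in all. The strand setting of the counting was not given in the sources used here.

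The protein C pathway members went opposite ways. Thbd was 29.2, 28.4 and 19.9 CPM with PBS and 4.54, 1.94 and 2.70 CPM with LPS. It was 20.6, 19.0 and 14.7 CPM with 3′SL and 5.92, 2.02 and 4.50 CPM with LPS+3′SL. Every library without LPS was above every library with it, while PBS overlapped 3′SL and LPS overlapped LPS+3′SL. LPS lowered Thbd to 0.119 of the PBS mean (log2 fold change −3.07, SE 0.40, edgeR adjusted p = 0.000115), and in the presence of 3′SL to 0.229 (−2.13, SE 0.39, adjusted p = 0.00148). Thbd and Procr are also expressed by endothelial cells. Of the endothelial markers, Cdh5 rose by 1.98 (log2, edgeR adjusted p = 0.0301) and Kdr by 0.99 (adjusted p = 0.0183) with LPS, Pecam1 was not called (0.07, adjusted p = 0.948), and Tek, Emcn and Tie1 were too low to test. Their part in the Thbd and Procr results was not tested.

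Procr was 7.63, 7.50 and 13.7 CPM with PBS and 52.9, 62.4 and 151 CPM with LPS. With 3′SL it was 15.0 and 11.4 CPM in replicates 1 and 2 and 114 CPM in replicate 3, and with LPS+3′SL it was 48.4, 63.6 and 231 CPM. Replicate 3 was highest in every condition. The 3′SL library of set 3 overlapped the LPS range, and every other neighbouring pair overlapped as well. LPS raised Procr 9.26-fold (log2 3.21, SE 0.94, edgeR adjusted p = 0.0161). The call was lost without PBS replicate 1, PBS replicate 2 or LPS replicate 3, with log2 fold changes from 2.59 to 3.07 and adjusted p from 0.0573 to 0.0598, and also without library set 1 or 2. Within sets the LPS change was 2.79, 3.06 and 3.47. In LPS+3′SL against 3′SL the log2 fold change was 1.29 (SE 0.87, adjusted p = 0.286), and leaving out 1 library moved it from 0.26 (adjusted p = 0.870, without LPS+3′SL replicate 3) to 3.11 (adjusted p = 0.00863, without 3′SL replicate 3). With the set block it was 1.57 (adjusted p = 0.00307).

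In the plasminogen system, the enzyme and its receptor moved in opposite directions with LPS. Plau was 1017, 760 and 1210 CPM with PBS and 157, 139 and 73.1 CPM with LPS. It was 803, 605 and 403 CPM with 3′SL and 227, 202 and 95.7 CPM with LPS+3′SL. Libraries with and without LPS did not overlap. Plau fell to 0.124 of the PBS mean (log2 fold change −3.01, SE 0.40, edgeR adjusted p = 0.000136) and, with 3′SL in both groups, to 0.290 (−1.79, SE 0.39, adjusted p = 0.00410). The second call was lost without library set 2 (adjusted p = 0.0711).

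Plaur was 57.5, 39.9 and 115 CPM with PBS and 283, 326 and 418 CPM with LPS. It was 79.4, 62.4 and 224 CPM with 3′SL and 253, 251 and 467 CPM with LPS+3′SL. Set 3 held the highest library in each condition, yet the libraries with LPS all lay above those without. Plaur rose 4.82-fold with LPS (log2 2.27, SE 0.53, edgeR adjusted p = 0.00462), a call lost without library set 2 (adjusted p = 0.0512). With 3′SL in both groups, the log2 fold change was 1.41 (SE 0.51, adjusted p = 0.0521) and did not pass. It passed with DESeq2 (1.43, adjusted p = 0.0143), without PBS replicate 2 or 3 (1.41 in each, adjusted p = 0.0484 and 0.0367) and without 3′SL replicate 3 (2.20, adjusted p = 0.00409), and it was 1.55 (adjusted p = 0.000108) with the set block.

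Serpinb2 varied widely between sets. It was 27.7, 2.49 and 5.80 CPM with PBS, 24.5, 1.63 and 9.06 with 3′SL, 74.2, 17.2 and 74.7 with LPS and 55.1, 9.97 and 50.8 with LPS+3′SL. All neighbouring conditions overlapped. The LPS change within sets was 1.42, 2.79 and 3.69 on the log2 scale. The pooled value was 2.20 (SE 1.07, edgeR adjusted p = 0.117) and did not pass, but it was 2.54 (SE 0.38, adjusted p = 0.000136) with the set block and 3.74 (adjusted p = 0.0310) without PBS replicate 1. In LPS+3′SL against 3′SL the log2 fold change was 1.72 (adjusted p = 0.240), and 1.98 (adjusted p = 0.00107) with the block. Serpinb2 was higher in set 1 than in set 2 in each condition, as the stromal markers were. In set 3 it lay between them with PBS and 3′SL, but close to set 1 with LPS and LPS+3′SL. The stromal sums of set 3 were 54.0 to 96.6 CPM, against 529 to 616 CPM in set 1. The part of the stromal markers in the result was not tested. Of its 50-base words, 10.4% are shared with another gene, mainly Serpinb10, which overlaps it on the same strand and held 8 reads in all.

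Thbs1 was 443, 113 and 293 CPM with PBS and 644, 412 and 835 CPM with LPS. The log2 fold change with LPS was 1.16 (SE 0.51, edgeR adjusted p = 0.0866), and it passed with the set block (1.25, adjusted p = 0.000806), with DESeq2 (adjusted p = 0.0326) and without PBS replicate 1 (1.64, adjusted p = 0.0393). With 3′SL present the value had the other sign, −0.67 (SE 0.51, adjusted p = 0.342), and −0.71 (adjusted p = 0.0258) with the block.

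**Figure D2:**
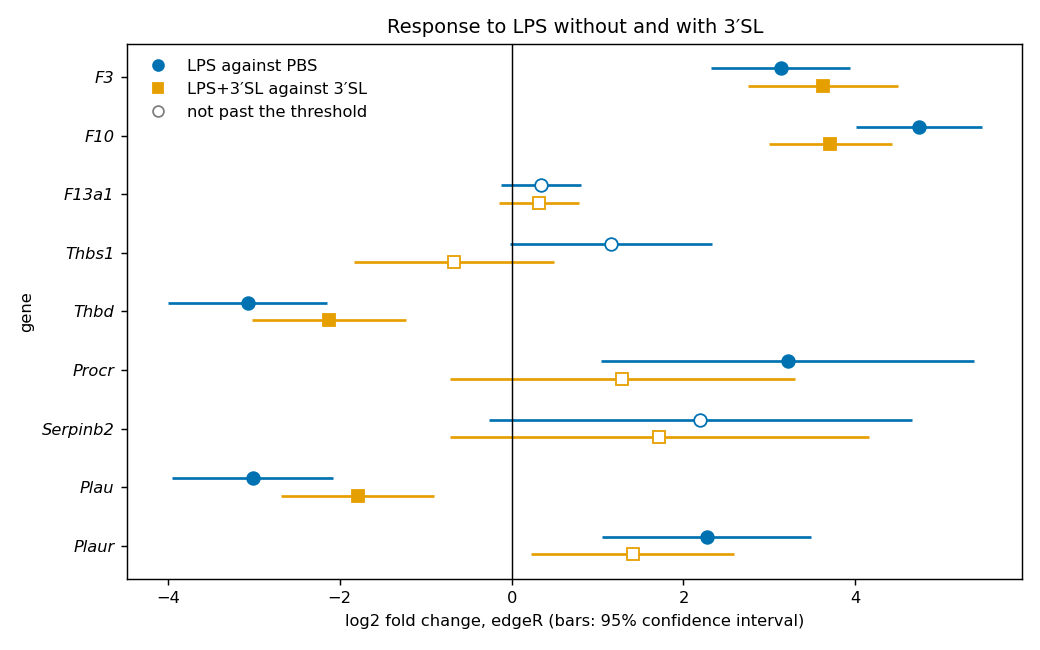
Log2 fold change with LPS for the 9 genes (x axis), from edgeR, without 3′SL (blue circles) and with 3′SL in both groups (orange squares). Bars are 95% confidence intervals, built on the 8 residual degrees of freedom and so wider than the test implies. Open symbols did not pass the threshold. F3 and F10 lie to the right of 0 and Thbd and Plau to the left in both comparisons, while the points of Thbs1 lie on either side.

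Per kilobase of exon, levels can be compared between genes. With PBS, Plau stood far above the rest at 421 ± 95.2 CPM per kilobase (SD, n = 3), followed by Thbs1 at 46.6 ± 27.2, Plaur at 27.1 ± 15.1 and F13a1 at 13.4 ± 2.21. F3 was lowest at 0.22 ± 0.08. With LPS, Plaur was highest at 131 ± 26.2, Thbs1 stood at 104 ± 34.8, within the spread of Plaur, and Plau at 52.1 ± 18.7. F10 moved from 1.30 ± 0.14 to 34.6 ± 7.89, and Thbd from 6.93 ± 1.39 to 0.82 ± 0.36, which left it the lowest of the 9.

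The second question was whether 3′SL changed these genes. In 3′SL against PBS and in LPS+3′SL against LPS, edgeR called none of the 9 genes and 0 of all 14308 genes (0%), while 1439 and 995 genes had an unadjusted p under 0.05, among them 3 and 2 of the 9. DESeq2 called none of the 9 in the first comparison (0.615% of all genes) and F10 in the second (0.79%). With the set block, Thbs1 and Procr were called in the first (2.84% of all genes) and F10 in the second (1.45%). Of the 9 genes, 7 moved the same way in all 3 sets without LPS (51.3% of all genes did) and 6 did with LPS (47%). Libraries of the 2 groups did not overlap for 3 of 9 genes without LPS (17.5% of all genes) and for 2 of 9 with LPS (12.7%).

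Among LPS-treated cells, F10 had the largest difference of the 9 between cells with and without 3′SL. The 3 libraries with LPS+3′SL lay below all 3 with LPS, and the mean was 0.333 of the LPS mean. Within sets the log2 ratio was −1.84, −1.61 and −1.43. The fitted value was −1.59 (SE 0.28, edgeR adjusted p = 0.152, unadjusted p = 0.000136). It was called by DESeq2 (−1.60, adjusted p = 9.84e-05), with the set block (−1.61, adjusted p = 0.000833) and without library set 3 (−1.70, adjusted p = 0.0351). With the block and without set 1 or set 2, the adjusted p was 0.0722 and 0.0794. F10 remained above PBS in every LPS+3′SL library. Without LPS the log2 ratios were −0.50, −1.09 and −0.19, and the fitted value was −0.56 (SE 0.30, adjusted p = 0.585).

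F3 was lower beside 3′SL in each set in both settings. Without LPS the log2 ratios were −1.80, −0.96 and −0.86, on 5 to 27 reads a library, and the fitted value was −1.24 (SE 0.37, edgeR adjusted p = 0.351). With LPS the ratios were −0.51, −0.74 and −0.94, and the fitted value was −0.75 (SE 0.32, adjusted p = 0.673). No alternative run called F3 for 3′SL, the set block included (adjusted p = 0.0710 and 0.163).

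Thbs1 was 658, 475 and 1092 CPM with 3′SL and 473, 256 and 670 CPM with LPS+3′SL. Without LPS, 3′SL libraries were all above PBS libraries, the closest pair being 475 and 443 CPM. The log2 ratios within sets were 0.57, 2.08 and 1.90, and the fitted value was 1.39 (SE 0.51, edgeR adjusted p = 0.434, and 1.47 with adjusted p = 0.00997 with the set block). With LPS the ratios were −0.44, −0.69 and −0.32, and the fitted value was −0.43 (SE 0.50, adjusted p = 1). The difference of the 2 changes was −1.83 (SE 0.72, adjusted p = 0.745, unadjusted p = 0.0278), and −1.96 (SE 0.34, adjusted p = 0.0179) with the set block. The block kept both calls without set 1 or set 3 and lost both without set 2 (adjusted p = 0.136 and 0.277). Platelet and megakaryocyte markers, 7 genes, summed to 318 to 437 CPM with PBS and 386 to 584 CPM with 3′SL, nearly all of it Pf4, which was 310 to 429 CPM with PBS and 378 to 568 CPM with 3′SL (log2 0.34, adjusted p = 0.563). Of the others, Itga2b, Gp9, Gp1bb and Gp6 stayed under 1 CPM in every library. Thbs1 was lowest in set 2 in each condition, as the stromal markers were. With 3′SL, LPS and LPS+3′SL it was highest in set 3, while the stromal markers were highest in set 1. The part of the platelet and stromal markers in the Thbs1 values was not tested.

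For the difference between the 2 responses to 3′SL, edgeR called none of the 9 genes and 0 of all genes (0%), with 872 genes at an unadjusted p under 0.05. DESeq2 also called none of the 9 (0.308% of all genes), and the block called Thbs1 alone of the 9 (1.55%). In 3 of 9 genes, Thbs1, Thbd and Plau, 3′SL went one way in every set without LPS and the other way in every set with it, as in 10.9% of all genes. Plau had log2 ratios of −0.34, −0.33 and −1.58 without LPS and 0.53, 0.53 and 0.39 with LPS. Thbd had −0.50, −0.58 and −0.44 without LPS and 0.38, 0.06 and 0.74 with LPS. In both genes, the difference beside 3′SL ran against the LPS change in cells given LPS and along it in cells without LPS, and in neither gene did edgeR call it in either setting. The difference of the 2 changes was called for Plau only with the block and without set 3, a fit chosen after seeing the data (0.89, adjusted p = 0.000355), and for Thbd in no fit run.

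For Procr and Plaur, the 3′SL library exceeded the PBS library of its set each time. The Procr ratios were 0.98, 0.60 and 3.06 and the fitted value was 2.29 (SE 0.91, edgeR adjusted p = 0.458, and 1.68 with adjusted p = 0.0307 with the block). The block kept this Procr call without set 3 (0.79, adjusted p = 0.0101) and lost it without set 1 or set 2 (2.02 and 2.08, adjusted p = 0.168 and 0.114). Without 3′SL replicate 3 the Procr value was 0.42. The Plaur ratios were 0.46, 0.64 and 0.95 and the fitted value was 0.78 (SE 0.51, adjusted p = 0.656, block 0.0774). In that same library of set 3 the summed LPS response genes reached 122 CPM, the highest of the 6 libraries without LPS. Their part in the Procr and Plaur values was not tested. With LPS, the Procr ratios were −0.13, 0.03 and 0.61 and the Plaur ratios −0.16, −0.38 and 0.16. For Serpinb2 they were −0.43, −0.79 and −0.55, with a fitted value of −0.52 (SE 1.02, adjusted p = 1). F13a1 stayed within −0.15 and 0.12 in all 3 sets with LPS and within −0.05 and 0.09 without, and its fitted confidence interval with LPS ran from −0.48 to 0.46.

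**Figure D3:**
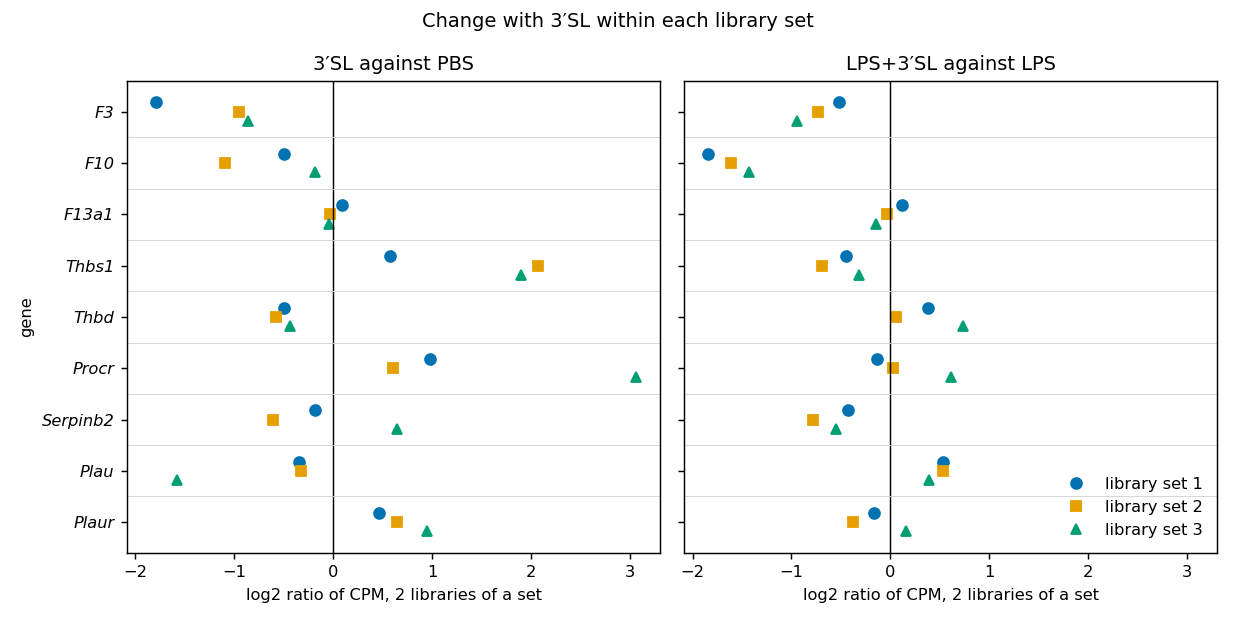
Log2 ratio of CPM between the library with 3′SL and the library without it in the same set (x axis), for the 9 genes without LPS (left) and with LPS (right). Each point is 1 set. F10 and F3 lie left of 0 in all 6 pairs, and Thbs1, Thbd and Plau change side between the panels.

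Other genes of the pathway were taken from 5 lists: coagulation factors, inhibitors, thrombin receptors, plasminogen system genes, and genes that process or secrete coagulation proteins. Of 43 genes found, 25 passed the filter. LPS raised 6 and lowered 3 of the 25, in all 36% of them beside 38.5% of all genes, and with 3′SL present 4 were higher (F7, Serpinc1, F2r and Plgrkt) and 3 lower (Lrp1, Vkorc1l1 and Mcfd2), in all 28% beside 29.2% of all genes. These shares are near those of all genes. In the second comparison the call of Serpinc1 was lost in 9 of the 12 fits that left out a library. F2r lost it without LPS+3′SL replicate 2 or 3′SL replicate 3 (adjusted p = 0.0599 and 0.0572), Lrp1 without 3′SL replicate 2 or LPS+3′SL replicate 3 (adjusted p = 0.0548 and 0.0563), and Mcfd2 without 3′SL replicate 3, where the log2 fold change was −0.51. The median log2 fold change of the 25 genes was 0.26 in LPS against PBS and 0.11 in LPS+3′SL against 3′SL. For 3′SL, no fit (edgeR, DESeq2 or block) called any of the 25. The genes for prothrombin, factor XI, factor XII, factor XIII B, the fibrinogen γ chain, protein C, plasminogen, Serpina5, Serpina10 and Cpb2 had no read in any library.

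**Figure D4:**
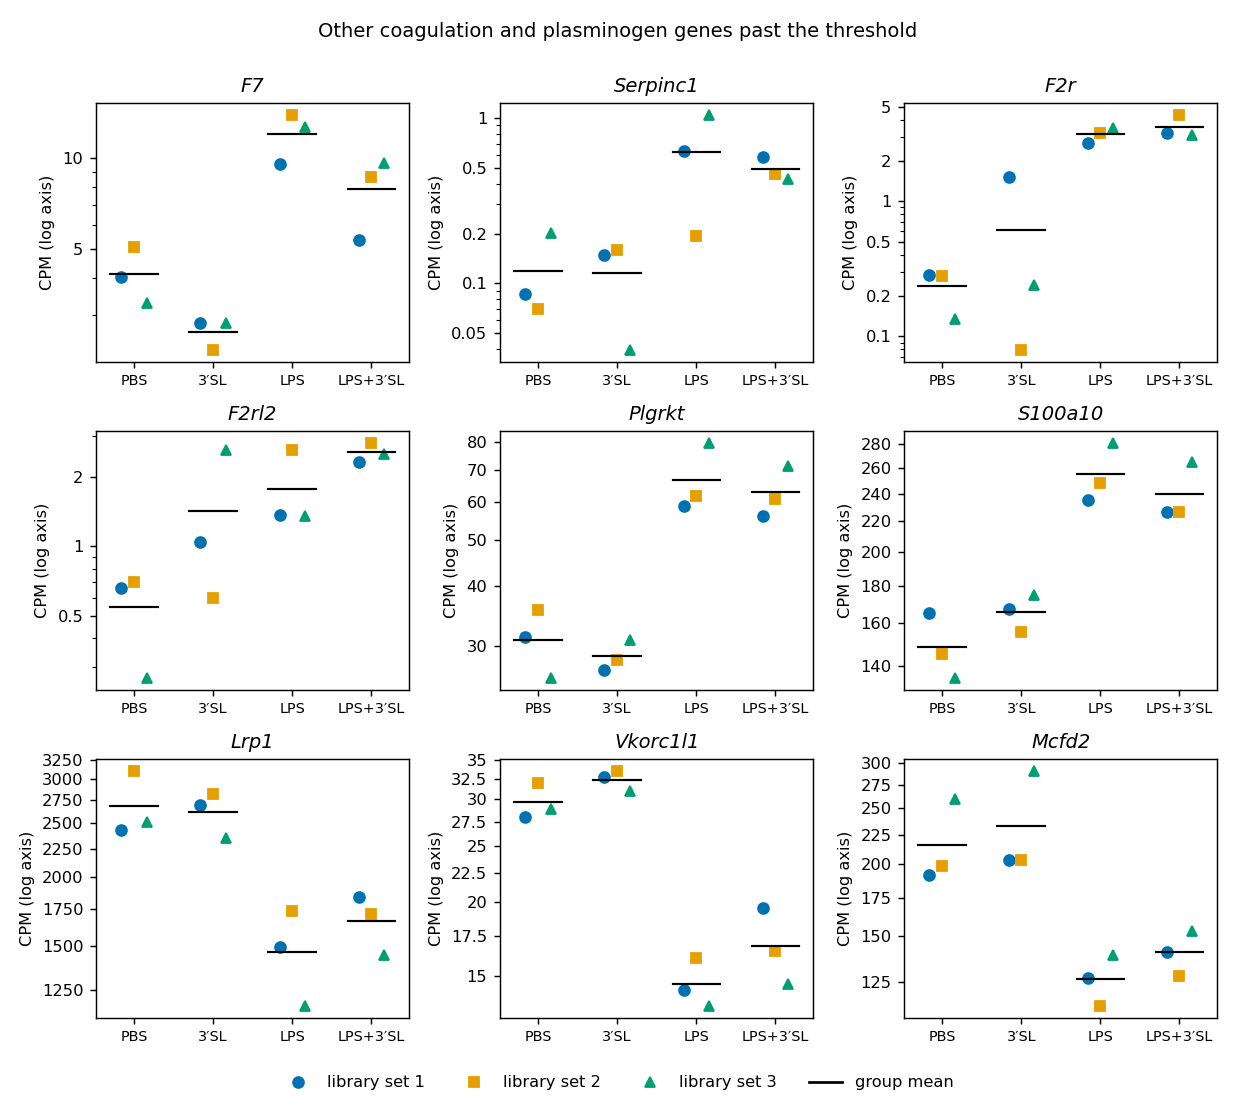
Level of the 9 other pathway genes that passed the threshold in LPS against PBS, in CPM on a log axis, by condition. Points are libraries by set and the line is the group mean. F7 and Plgrkt are higher and Lrp1, Vkorc1l1 and Mcfd2 lower in every library with LPS than in any without it.

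F7, the partner of tissue factor, was 4.02, 5.08 and 3.30 CPM with PBS and 9.57, 13.9 and 12.7 CPM with LPS, a log2 fold change of 1.54 (SE 0.26, edgeR adjusted p = 0.000554). With 3′SL present it was 1.57 (SE 0.26, adjusted p = 0.000802). The thrombin receptor F2r was 0.29, 0.28 and 0.13 CPM with PBS and 2.68, 3.19 and 3.50 CPM with LPS (log2 3.70, SE 0.80, adjusted p = 0.00311), and F2rl2, another member of that family, changed by 1.70 (SE 0.56, adjusted p = 0.0274). Serpinc1, antithrombin, rose by 2.33 (SE 0.70, adjusted p = 0.0188) but stayed at or under 1.04 CPM. The calls of F2rl2 and Serpinc1 were lost with total counts (1.05 and 1.66), and each was lost without some single libraries: F2rl2 without PBS replicate 1, PBS replicate 3 or LPS replicate 2, and Serpinc1 without PBS replicate 1, PBS replicate 2 or LPS replicate 3 (adjusted p from 0.0511 to 0.110 in these 6).

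Plgrkt, a plasminogen receptor, went from 30.9 ± 4.93 to 66.7 ± 11.3 CPM (SD, n = 3, log2 1.11, edgeR adjusted p = 0.000170), and S100a10, which binds plasminogen with annexin A2, from 149 ± 15.3 to 255 ± 23.6 CPM (log2 0.78, adjusted p = 0.000257). With total counts these 2 values were 0.44 and 0.11 and neither was called. Lrp1, the receptor that takes up protease and inhibitor complexes, fell from 2681 ± 368 to 1467 ± 282 CPM (log2 −0.87, adjusted p = 0.00223). Vkorc1l1, of the vitamin K cycle, fell by 1.03 on the log2 scale (adjusted p = 8.46e-05), and Mcfd2, which helps export factors V and VIII from the endoplasmic reticulum, fell by 0.77 (adjusted p = 0.00329).

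Across the 12 libraries, some other genes followed a member closely. As a description over libraries that share conditions and sets, the Pearson correlation of log2(CPM + 1) was 0.994 for F10 with Abracl and 0.992 with Trim13, 0.988 for F3 with Gm6377 and with Ywhae, and 0.991 for Plau with Dagla and 0.987 with Polr1b. For Plaur it was 0.993 with Ninj1 and 0.990 with Tmem132a, for Procr 0.990 with Ttc39c and 0.989 with Psma7, and for Thbd 0.978 with Asb4 and 0.976 with Plekhh2. Serpinb2 came closest to Plod2 (0.969) and Cnn3 (0.967), and F13a1 to Adam19 (0.924) and Myh10 (0.917). Thbs1 had the least close followers, Snora28 (0.945) and Gm12715 (0.845).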

How the data were processed

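Total RNA of BMDMs was made into stranded libraries from polyA-enriched mRNA. The deposited files hold raw read counts per gene, 1 table a library, that the authors made from their reads. The submitters' processing notes name FastQC, Trimmomatic, STAR, HTSeq and DESeq2, with versions, genome build, annotation and strand setting not given in the sources used here. Gene symbols were matched to GENCODE M21 (GRCm38), which named 42462 of 43626 identifiers. Entries that HTSeq assigned to no gene (33.2 to 37.1% of the total, mostly reads without a unique alignment) were left out. Counts were tested with edgeR 4.0.16 in R 4.3.3 (TMM scaling with factors from 0.700 to 1.30, filterByExpr, 1 fit over all 12 libraries with 8 residual degrees of freedom, quasi-likelihood F test, Benjamini-Hochberg adjustment over 14308 genes). Confidence intervals use the 8 residual degrees of freedom, fewer than the quasi-likelihood test uses, and are wider than that test implies. CPM use TMM-scaled library sizes. DESeq2 1.42.0 and a fit with the library set as a block were alternatives, as were RLE and total-count scaling, other filters, no fold minimum, only the conditions compared, and leaving out each library or set. edgeR put the common variation between libraries (BCV) at 0.310 in the fit without this block and at 0.133 with it. The scripts were tested on simulated data. The 9 genes, the lists and the marker genes were chosen with earlier results of these data known, and the library sets were found in the data. Every one of the 9 genes is described; from the 5 pathway lists the called genes with the largest change are named, at most 3 per direction, list and comparison, and for each member with a mean of at least 1 CPM the 2 tested genes with the highest correlation. With 3 libraries against 3, an exact permutation test cannot go below p = 0.1, so none was used for a call. All 9 genes were tested at this depth, and F3 without LPS rests on the fewest reads.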

Additional observations from a re-analysis of the deposited data

Results flagged for a closer look

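In 3 of the 9 genes, the change with 3′SL went in opposite directions without and with LPS in every library set. The change with 3′SL beside LPS, less the change without LPS, was −1.83 for Thbs1, 0.95 for Thbd and 1.23 for Plau on the log2 scale. The interaction test of edgeR gave adjusted p-values of 0.745, 0.849 and 0.811, and the same test with the library set as a block gave 0.0179, 0.248 and 0.109. With the block and without set 3, Plau was called as well (0.89, adjusted p = 0.000355), while Thbs1 was not called without set 2 (adjusted p = 0.277). Such opposite directions were seen in 10.9% of all genes tested.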

How the results depend on the processing

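Scaling to total counts shifted the median over all genes to −0.71 (log2) in LPS against PBS and −0.54 in LPS+3′SL against 3′SL, while the same 6 and 4 of the 9 genes were called. The number of the 9 genes called in LPS+3′SL against 3′SL was 8 with the library-set block, alone, with DESeq2 or with total counts, and 8, 7 and 8 with the block and without set 1, 2 or 3. In 3′SL against PBS it was 2 with the block, 3 with the block in DESeq2, 2 with the block and total counts, and 1 and 3 with the block and without set 1 or set 3. In LPS+3′SL against LPS it was 1 with DESeq2 without the block, with each of the 3 block fits, and without set 3 with or without the block. In the interaction it was 1, 2 and 1 in the 3 block fits, and with the block 1 without set 1 (Thbs1) and 4 without set 3 (Thbs1, Procr, Plau and Plaur). Without the block, 3′SL against PBS and the interaction gave 0 in each alternative run. The fits with the block and a set left out were chosen after seeing the data. Leaving out 1 library kept each of these numbers within 1.5 times.

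The sign of a log2 fold change turned only for values that did not pass the test. For F13a1 with total counts, without and with the block, it was −0.31 and −0.31 in LPS against PBS, −0.16 and −0.16 in LPS+3′SL against 3′SL, −0.0625 and −0.0781 in 3′SL against PBS, and 0.0897 and 0.0668 in LPS+3′SL against LPS. F13a1 in 3′SL against PBS was −0.0070 with all genes of at least 1 count, −0.0358 and −0.0356 without set 1, without and with the block, and −0.17 to 0.15 with 1 library left out. F13a1 in LPS+3′SL against LPS was 0.0011 with all genes of at least 1 count, 0.0065 with only the conditions compared, 0.0709 and 0.0597 without set 3 without and with the block, and −0.18 to 0.12 with 1 library left out. Serpinb2 in 3′SL against PBS was 0.36 without set 1, 0.11 and 0.0810 with the block and without set 1 or 2, and −1.18 to 1.4996 with 1 library left out. In LPS+3′SL against LPS, Procr was −0.0347 and −0.0356 without set 3, without and with the block, and −0.66 to 0.99 with 1 library left out. Plaur was 0.0376 without set 2 and −0.44 to 0.0870 with 1 library left out, and in 3′SL against PBS it was −0.0435 to 1.32. The cause was not tested. Of the single values, 33 lost and 64 gained a call over the other alternatives, and 23 lost and 6 gained one with 1 library left out. The labels carry no replicate numbers, so the block rests on the library numbers. F3 rests on 5 to 27 reads a library without LPS, and Serpinb2 and Procr on wide spreads between sets.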
